A study of Mus musculus with 9 samples.

Results

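The Fos and Jun families supply the subunits of AP-1, a transcription factor that binds DNA as a pair of leucine-zipper proteins. Their 7 mouse genes, Fos, Fosb, Fosl1, Fosl2, Jun, Junb and Jund, were taken by gene symbol from the platform annotation, which gave them 11 of the 45037 probe sets that are not array controls (7 of 18193 genes). Of these, 8 had a mean signal of at least 100 over the 9 arrays and were tested, so that every gene except Fosb had a tested probe set. Fosb (1422134_at), the dimmer Fosl1 probe set (1417488_at) and the dimmer Jund probe set (1440265_at) averaged 48.1, 56.3 and 28.2 and are given as values.

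Total RNA of mouse embryonic fibroblasts, cells grown from the connective tissue of E13.5 embryos, was measured on 9 Affymetrix arrays, from 2 lines that had immortalised spontaneously. The first line lacked Suv420h1, a methyltransferase of histone H4 encoded by Kmt5b. It was measured with a Suv420h1-GFP fusion (reconstituted, 1 array) and as the Suv420h1 null group, untransduced or with GFP (2 arrays). The second line had wild-type Suv420h1 and received lentivirus, in most cases for PREX2, an exchange factor for the GTPase Rac. Its groups were PREX2 truncated by K278*, E824* or Q1430*, each a codon turned into a stop (3 arrays), full-length PREX2 (1 array) and control vector, GFP or LacZ (2 arrays). Each genotype was represented by cells that had been immortalised separately, so the effect of the missing gene and any other difference between the lines cannot be told apart. No construct was repeated within a group and no label gives separate cultures, so every p-value rests on the spread among these few arrays, which may be technical and which limits the precision.

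AP-1 pairs contain either 2 Jun proteins or 1 Jun and 1 Fos protein, because Fos proteins do not pair with each other. In resting fibroblasts Fos, Fosb, Jun and Junb are known as immediate-early genes, which growth factors induce within minutes and without new protein synthesis. Fosl1 and Fosl2 (the proteins Fra-1 and Fra-2) are known to be induced later and to remain longer, and Fosl1 is a known target of AP-1 itself. Jund is known for a steadier level that changes little when cells are stimulated.

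The bases before the annotated start are shown for Fos, Junb and Fosb, whose signals differed most between the lines. They are also shown for Jun, likewise known as an immediate-early gene, whose signals overlapped. The 120 bases upstream come from RefSeq on build GRCm38.p6, at chr12:85473770-85473889 on the plus strand for Fos, and on the minus strand at chr7:19310046-19310165 for Fosb, chr8:84978749-84978868 for Junb and chr4:95052223-95052342 for Jun. Capitals mark TGACG, the core of the cAMP response element, TATAAA, and TGACATCA, the AP-1-like element known from the Jun promoter.
Fos: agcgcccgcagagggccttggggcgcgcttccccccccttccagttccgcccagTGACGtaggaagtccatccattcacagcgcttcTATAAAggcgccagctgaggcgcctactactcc
Fosb: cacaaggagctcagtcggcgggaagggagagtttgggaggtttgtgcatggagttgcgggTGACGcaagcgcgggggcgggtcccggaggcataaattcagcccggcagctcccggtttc
Junb: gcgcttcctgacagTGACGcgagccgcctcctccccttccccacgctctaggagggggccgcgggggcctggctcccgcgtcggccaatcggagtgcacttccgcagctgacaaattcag
Jun: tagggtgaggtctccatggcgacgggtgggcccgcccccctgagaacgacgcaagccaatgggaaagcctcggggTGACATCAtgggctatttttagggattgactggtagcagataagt

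TGACG began 66 bases before the start in Fos, 60 in Fosb and 106 in Junb. Searched on both strands, it stood in the same window of 11.9% of 27025 genes. TGACATCA began 45 bases before the start in Jun and occurred in 2.19% of genes, and TATAAA occurred in 6.76% and, among the 6 family members with an entry, in Fos. TGANTCA, with any base at N, is a pattern that takes in the classical AP-1 site and is wider than it. This pattern and the CArG box bound by serum response factor were in 0 of the 6 members and in 3.40% and 0.74% of genes. Over 250 bases they were again in 0 members, beside 6.87% and 1.40% of genes. These matches do not overlap each other, and a match of letters is no site of binding. Bases more than 250 before the start were not searched, so the counts of 0 do not show that Fos or another member lacks either element.

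Before the family was read, the arrays were checked against their labels. The Kmt5b probe set 1451817_at read 150.3 on the reconstituted array, 8.85 and 17.3 on the null arrays and 118 to 182 in the wild-type line; no source used here says which part of the transcript it reads. In none of the other 3 tested Kmt5b probe sets were the null arrays the lowest. 1455171_at read 554 on the reconstituted array and 536 and 462 on the null arrays, against 221 to 338 in the wild-type line, and 1434999_at read 328 on the reconstituted array and 442 and 432 on the null arrays, against 295 to 469.6 in the wild-type line. 1442764_at read 66.2 on the reconstituted array and 101 and 79.4 on the null arrays, against 103 to 153 in the wild-type line. The check of the label thus rests on 1451817_at among these 4. The brighter Prex2 probe set (1436569_at) read between 703 and 809 with truncated PREX2, 795 with full-length PREX2 and 452 and 677 with control vector, and whether it reads the transduced construct is not given either. Of 13 fibroblast markers, 11 read at least 100 on every null-line array and 12 or 13 did so on the arrays of the wild-type line. The exceptions in the null line were Thy1, at 27.3 or less there and at least 1097 on every array of the wild-type line, and Lum, at 48.6 to 75.0 in the null line and 24.0 to 525 in the wild-type line. The median signal was 67.8 to 68.7 in the null line and 56.3 to 62.2 in the wild-type line. The ratio of 3' to 5' signal for the Actb controls was 1.15 to 1.21 in the null line and 1.18 to 1.36 in the wild-type line. For the Gapdh controls it was 0.8504 to 0.8635 in the null line and 0.815 to 0.9224 in the wild-type line.

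The null line was compared with wild-type control vector to ask which subunits differ where Suv420h1 is missing. Of the family, 2 members were higher, Fos by 47.0-fold and Junb by 4.42-fold, and 0 were lower. The other 6 tested probe sets, those of Fosl1, Fosl2, Jun and Jund, did not pass.

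**Figure D1:**
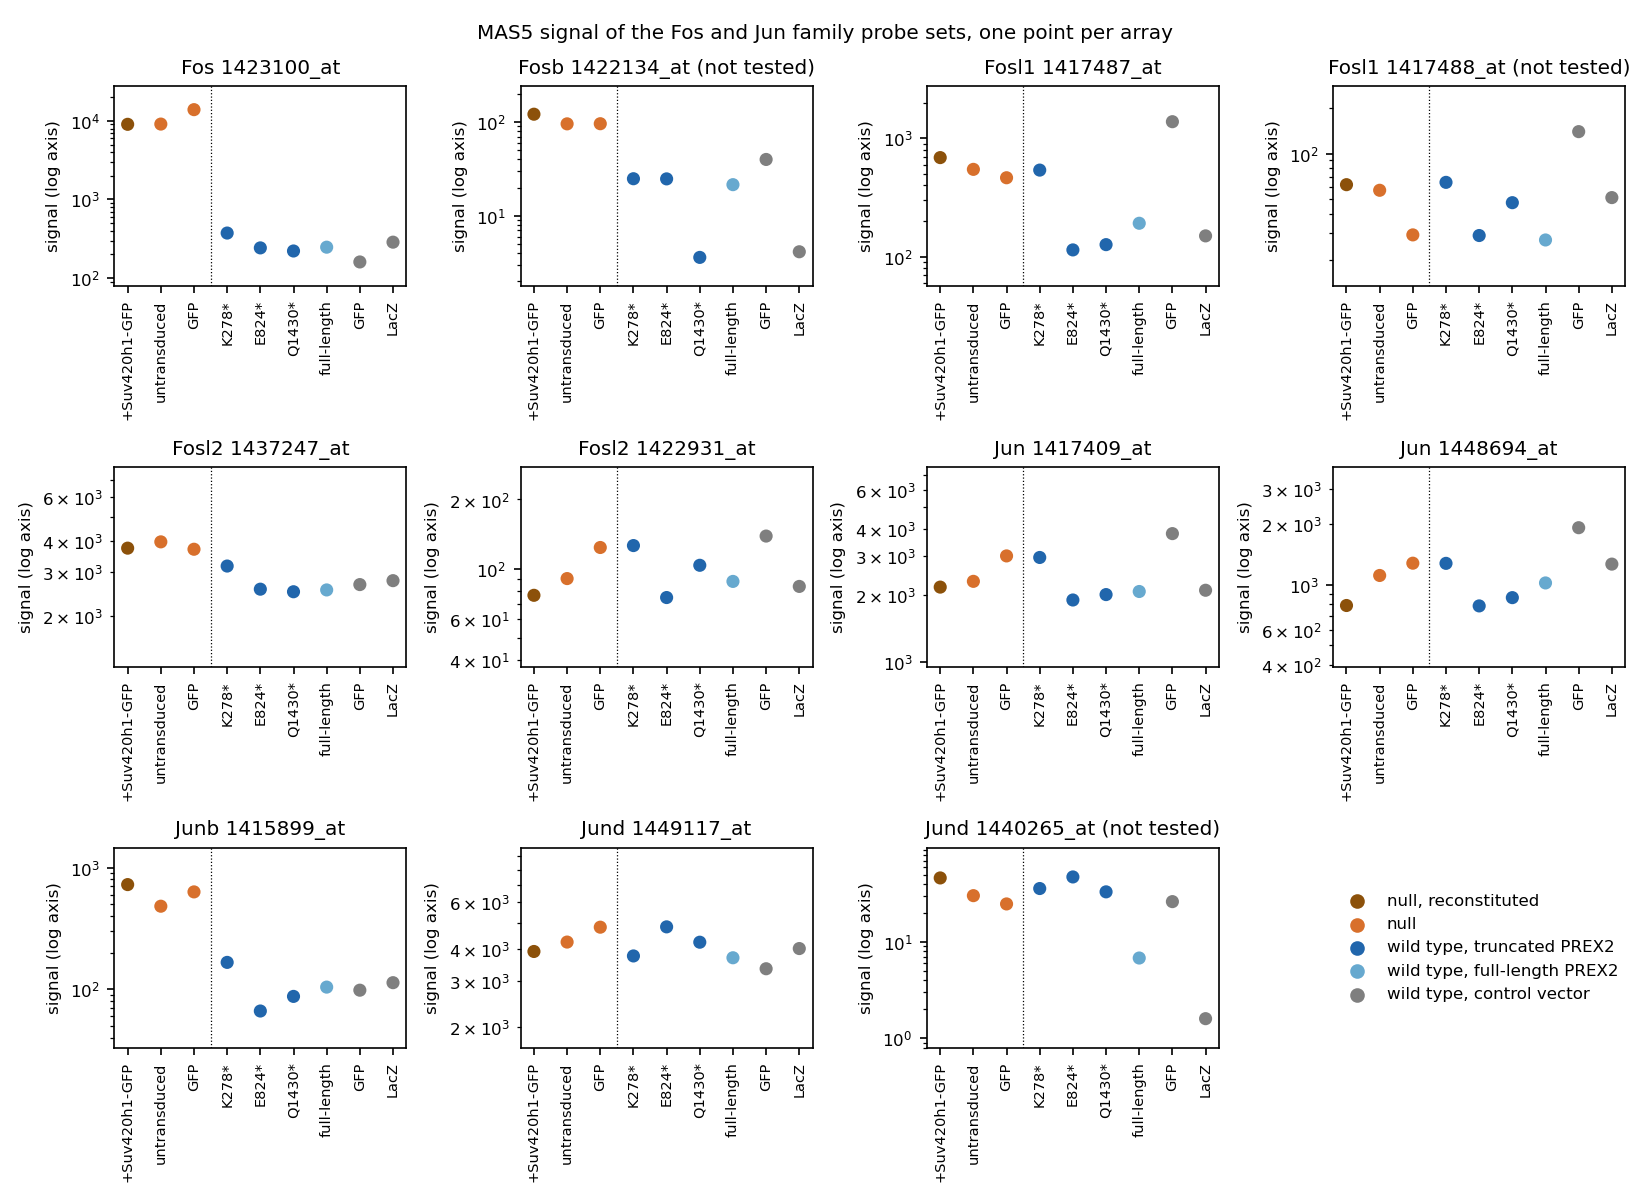
Signal of each of the 11 probe sets (vertical, log axis) on each array (horizontal), with the null line left of the dotted line and the wild-type line right of it; each point is 1 array. Fos, Fosb, Junb and, by a small step, the brighter Fosl2 probe set (1437247_at) lie higher on all 3 null-line arrays than on any wild-type-line array, whereas Fosl1 is highest on the wild-type GFP array. How many of all probe sets lie apart in this way was not counted.

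Fos, the founding member and the partner that stabilises binding with Jun, read 9046 on the reconstituted array, 9109 on the untransduced and 13906 on the GFP null array. In the wild-type line it read 373 with K278*, 242 with E824*, 221 with Q1430*, 247 with full-length PREX2, 160.1 with GFP and 286 with LacZ. The lowest null-line signal was far above the highest wild-type-line signal, and no construct in either line brought a value between them. The log2 change of the null line against control vector was 5.56 (SE 0.339, 95% interval 4.76 to 6.35, 2 against 2 arrays, adjusted p = 0.000123), in limma on log2(signal + 25) with Benjamini-Hochberg adjustment over 19090 probe sets. Of those probe sets 21 had a change larger in size. In bulk RNA, fewer cells with a transcript and less of it per cell cannot be told apart.

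Junb, a Jun protein that pairs with Fos and on many promoters activates less than Jun, read 725 on the reconstituted array, 481 on the untransduced and 631 on the GFP null array. In the wild-type line it read 166 with K278*, 66.1 with E824*, 87.2 with Q1430*, 104 with full-length PREX2, 98.1 with GFP and 113 with LacZ. The lines did not overlap. The log2 change against control vector was 2.14 (SE 0.342, adjusted p = 0.00612). Without the GFP null array it was 1.96 and did not pass (adjusted p = 0.0624).

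Fosb, a Fos protein with an activation domain that Fosl1 and Fosl2 lack, was dim. Its probe set read 122 on the reconstituted array, 96.0 on the untransduced and 96.3 on the GFP null array. In the wild-type line it read 24.9 with K278*, 24.8 with E824*, 3.61 with Q1430*, 21.5 with full-length PREX2, 40.0 with GFP and 4.14 with LacZ. Every null-line array was higher than every wild-type-line array, but its mean lay under the minimum for testing. When all probe sets were tested whatever their signal, the log2 difference from control vector was 1.48 and did not pass (adjusted p = 0.0909).

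Fosl1, the gene of Fra-1, did not follow Fos. Its brighter probe set (1417487_at) read 687 on the reconstituted array, 547 on the untransduced and 465 on the GFP null array, against 1380.5 with wild-type GFP and 150.3 with LacZ. The null arrays thus lay between the 2 control arrays, and the log2 difference was 0.09 (SE 0.988, 95% interval -2.22 to 2.40, adjusted p = 0.958). Without LacZ it was -1.41 and without the GFP control array 1.59, neither of which passed (adjusted p = 0.221 and 0.199).

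Fosl2, the gene of Fra-2, had null-line signals of 3735 (reconstituted), 3959 (untransduced) and 3697 (GFP) at its brighter probe set (1437247_at), against 2495 to 3165 in the wild-type line. The lines did not overlap, though the step was small. Against control vector the log2 difference was 0.49 (SE 0.145) and missed the threshold (adjusted p = 0.0525), but it passed after quantile normalization (adjusted p = 0.0429). The dimmer Fosl2 probe set (1422931_at) read 76.4 to 124 in the null line and 74.7 to 139 in the wild-type line, with a difference of -0.03 (SE 0.302).

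Jun, which can pair with itself or with any Fos protein, differed little between the lines. At 1417409_at it read 2179 on the reconstituted array, 2313 on the untransduced and 3014 on the GFP null array, against 3801 with wild-type GFP and 2108 with LacZ. At 1448694_at the corresponding signals were 789.5, 1113 and 1279.9, against 1919.8 on GFP and 1267 on LacZ. Both probe sets put the wild-type GFP array highest and E824* lowest of the 9 arrays. The log2 differences from control vector were -0.10 (95% interval -0.84 to 0.64, adjusted p = 0.854) and -0.38 (95% interval -1.02 to 0.26, adjusted p = 0.373).

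Jund, the steadily expressed Jun protein, varied least of the tested probe sets, by a factor of 1.45 between its highest and lowest array at 1449117_at. It read 3897 on the reconstituted array, 4233 on the untransduced and 4825 on the GFP null array, against 3348 on GFP and 3999 on LacZ. The null and control-vector arrays did not overlap, but the log2 difference of 0.30 (SE 0.160) did not pass (adjusted p = 0.228). The dimmer probe set of Jund ranged from 1.60 to 47.6 and read 46.5, 30.4 and 24.9 on the reconstituted, untransduced and GFP null arrays.

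Thus 2 of 8 tested probe sets were called, both of them higher, in a comparison where 19.7% of all tested probe sets were called, 10.7% higher and 8.94% lower. The share of the family lies near that background. Its median log2 difference was 0.20, against -0.002 over all tested probe sets.

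**Figure D2:**
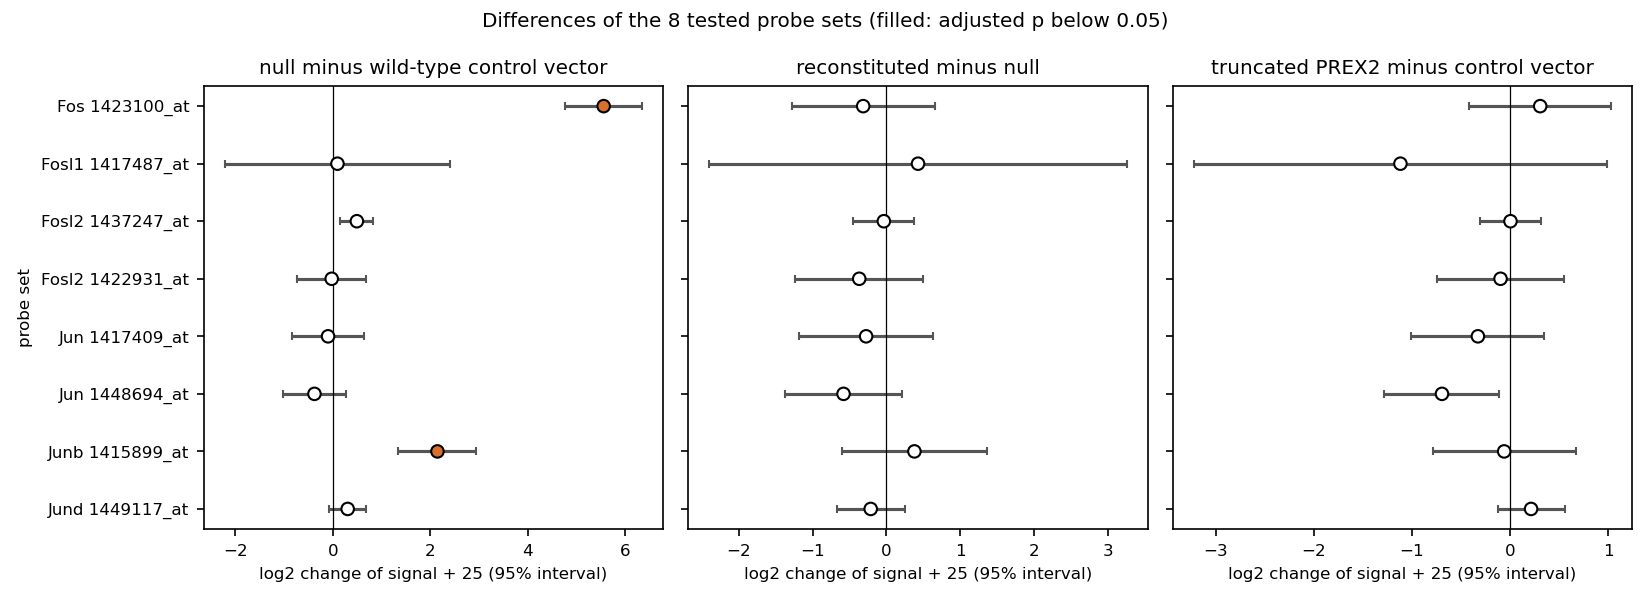
Log2 differences of signal + 25 (horizontal) with 95% intervals for the 8 tested probe sets (vertical) in 3 comparisons, each on its own scale; filled points passed. Fos at 5.56 and Junb at 2.14 pass in the left panel, and the Fosl1 intervals are the widest of each panel.

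When all 3 null-line arrays were set against all 6 wild-type-line arrays, 3 of 8 probe sets were called, all higher: Fos (5.27, SE 0.240, adjusted p = 1.24e-05), Junb (2.30, SE 0.242, adjusted p = 0.00045) and the brighter Fosl2 (0.49, SE 0.102, adjusted p = 0.00835). Of all tested probe sets 37.6% were called, 19.5% higher and 18.1% lower. The share of all probe sets without overlap was not counted, either between the lines or between the null and control-vector arrays. The lack of overlap in Fos, Fosb, Junb, Fosl2 and Jund is thus a description and cannot be called particular to them. The call of Fosl2 ended without the untransduced null array (adjusted p = 0.0501). Without the GFP control array Fosl1 was called too, at 1.45 (adjusted p = 0.0396), against 0.99 (adjusted p = 0.299) with all arrays. Line accounted for 98.4% of the variance of Fos over the arrays on the log2 scale, 93.1% of that of Junb and 85.1% of that of the brighter Fosl2 probe set, but for 18.1% of that of Fosl1 (1417487_at) and 0.472% and 2.4% of that of the 2 Jun probe sets. Without the filter Fosb also passed (1.59, adjusted p = 0.0109). This comparison uses the null and control-vector arrays of the first one and is not a repeat of it.

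The reconstituted array was compared with the 2 null arrays to ask what the Suv420h1-GFP fusion changes within the null line. Of the 8 tested probe sets 0 were called, as were 0% of all probe sets, and 0 of the 8 had an unadjusted p under 0.05. Fos differed by -0.31 (SE 0.415, 95% interval -1.29 to 0.66), Junb by 0.38 (95% interval -0.60 to 1.36) and Fosl1 by 0.43 (95% interval -2.40 to 3.26). The widest shift was at the Jun probe set 1448694_at, at -0.58 (SE 0.337), while the other Jun probe set was at -0.27. The intervals of Fos and Junb thus reach down to -1.29 and -0.60, beside log2 differences between the lines of 5.56 and 2.14, with which they share the null arrays. With 1 array in the reconstituted group the intervals are wide, and any change inside them is compatible with these data. Between the untransduced and the GFP null array 0 of 8 family probe sets differed by more than 2-fold on log2(signal + 25), beside 0.424% of all tested probe sets.

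In the wild-type line, truncated PREX2 was compared with control vector to ask whether the truncations shift the family. Of the 8 probe sets 0 were called, in a comparison where 0.00524% of all tested probe sets were called. The Jun probe set 1448694_at had the only unadjusted p under 0.05 of the 8. It read 1278 with K278*, 786 with E824* and 864 with Q1430*, against 1919.8 with GFP and 1267 with LacZ. The log2 difference was -0.69 (SE 0.251, adjusted p = 0.844), and K278* overlapped LacZ. The other Jun probe set read 2965, 1905 and 2016 with the 3 truncations, against 3801 with GFP and 2108 with LacZ, a difference of -0.33 (SE 0.290, adjusted p = 0.844).

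Fosl1 (1417487_at) read 539 with K278*, 114 with E824* and 127 with Q1430*, against 1380.5 with GFP and 150.3 with LacZ. Each group held 1 array far above its others. The log2 difference of -1.12 (SE 0.902, 95% interval -3.23 to 0.99, adjusted p = 0.844) was 0.38 without the GFP array. Fos differed by 0.31 (95% interval -0.42 to 1.03) and Junb by -0.06 (95% interval -0.79 to 0.67), and without the GFP array Fos was at -0.07.

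Full-length PREX2 was also compared with control vector, and the truncations with full-length PREX2. In both, 0 of 8 probe sets were called, as were 0% of all probe sets, and 0 of 8 had an unadjusted p under 0.05. With full-length PREX2, Fosl1 read 192 and differed from control vector by -1.19 (95% interval -4.02 to 1.63), Fos by 0.18 (95% interval -0.79 to 1.15) and Junb by -0.02. Truncated against full-length PREX2, the 8 differences lay between -0.10 and 0.20. The widest interval among them, that of Fosl1, ran from -2.59 to 2.74.

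Among the wild-type-line arrays, Fosl1 and Jun separated GFP and K278* from the other 4. Fosl1 on the GFP array was 9.18 times its LacZ signal, and on K278* 4.47 times the mean of E824* and Q1430*. Its dimmer probe set put the same arrays first, with 139.5 on GFP and 64.6 on K278*, against 26.9 to 51.2 on the other 4. For Jun the GFP signal was 1.80 times LacZ at 1417409_at and 1.52 times at 1448694_at, and the K278* signal was 1.51 and 1.55 times the mean of E824* and Q1430*. At 1448694_at K278* (1278) barely exceeded LacZ (1267). The dimmer Fosl2 probe set read 138.5 on GFP and 125.9 on K278*, against 74.7 to 103 on the other 4. The brighter Fosl2 probe set (1437247_at) did not separate these arrays.

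Fos and Junb did not share this order. The GFP array had the lowest Fos signal of the 9 (160.1), 0.56 of that on LacZ, although it had the highest Fosl1 and Jun signals. On K278* the signals of Fos (373) and Junb (166) were the highest of the wild-type line, 1.62 and 2.17 times the mean of E824* and Q1430*. At more than 2-fold on log2(signal + 25), 1 of 8 family probe sets (Fosl1) differed between GFP and LacZ, beside 6.82% of all tested probe sets, and 1 of 8 (Fosl1) between K278* and the mean of E824* and Q1430*, beside 2.24%. These are single arrays, and no test applies. The Actb 3' to 5' ratio moved with them, at 1.18 on K278* and 1.21 on GFP, against 1.31 to 1.36 with the other 4 constructs of that line. The Gapdh ratio did not set both arrays apart, at 0.9008 on K278* and 0.815 on GFP, against 0.8623 to 0.9224 with the other 4. The part of RNA quality in the result was not tested. Summed signals of the fibroblast, endothelial and neural markers moved with them too, and those of the macrophage, epithelial and muscle markers did not set both arrays apart. The fibroblast markers summed to 166957 on K278* and 161581 on GFP, against 213014 to 225659 with the other 4 constructs, the endothelial markers to 321 and 211, against 429 to 623, and the neural markers to 1538 and 1062, against 1755 to 2236. The macrophage markers summed to 688 on K278* and 530 on GFP, against 626 to 730 with the other 4 constructs. The epithelial markers summed to 639 and 591, against 587 to 649, and the muscle markers to 420 and 313, against 250 to 410. The other immediate-early genes summed to 47826 on K278* and 51616 on GFP, against 29224 to 34548. The part of these was not tested either.

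**Figure D3:**
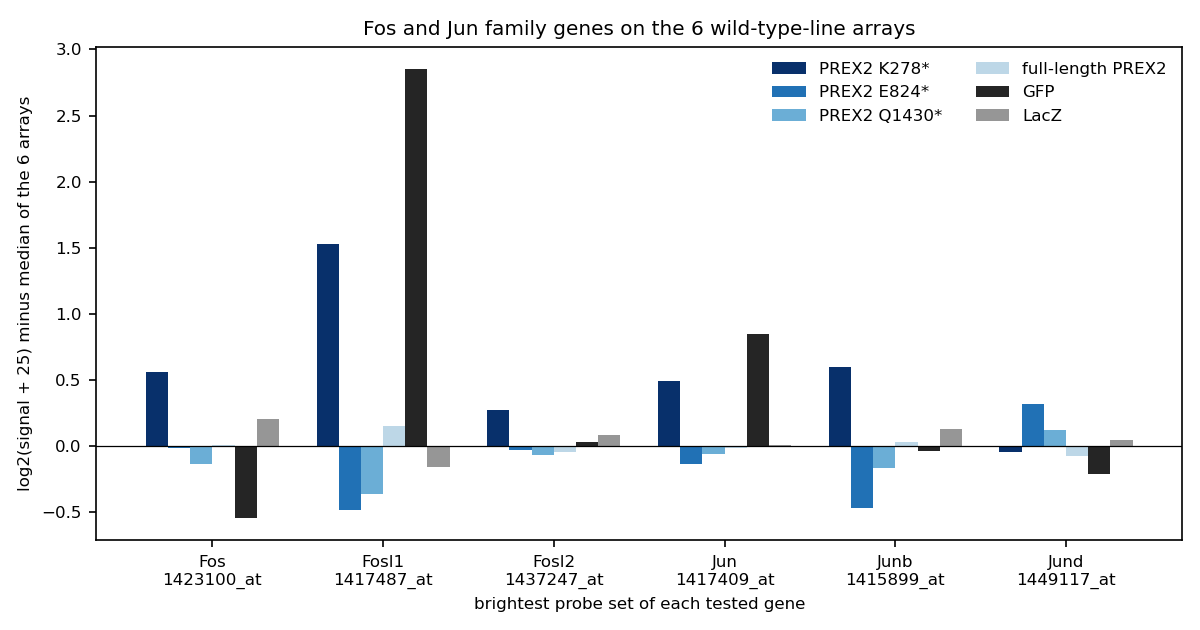
Difference of log2(signal + 25) from the median of the 6 wild-type-line arrays (vertical) for the brightest probe set of each tested gene (horizontal); each bar is 1 array. Fosl1 and Jun are highest on GFP and then K278*, Fos is lowest on GFP, and Jund and Fosl2 stay near 0.

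The family was also read with the GFP and K278* arrays both left out. They were picked after seeing the data, and they are the wild-type-line arrays with the highest Fosl1 and Jun (1417409_at) signals, so what these 2 genes do without them follows in part from the choice and is given as a description. Fosl1 then differed by 1.59 from the remaining control array and by 1.79 between all remaining arrays of the lines, and Jun at 1417409_at by 0.32 and 0.29. The number of called probe sets was 4 of 8 and 5 of 8. Fos (5.18 and 5.26) and Junb (2.06 and 2.44) kept their calls. In these fits 7054 and 11282 of the 19090 probe sets were called, against 3753 and 7181 with all arrays.

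The genes whose course over the 9 arrays came nearest to 4 of the members were found by the root mean square difference of log2(signal + 25), each gene centred on its own mean, among 10177 genes. This is a description. For Fos and Junb the measure is mostly the step between the lines, which holds most of their variance, and for Fosl1 and Jun mostly differences within the lines. Nearest to Junb was Egr2, a zinc-finger immediate-early gene, at 0.124 (the median gene was at 1.15), followed by Mbnl3 (0.237) and Elovl7 (0.264). Egr2 read 947, 517 and 871 on the reconstituted, untransduced and GFP null arrays, against 216 with K278* and 95.4 to 153 elsewhere in the wild-type line. Like Junb it had its highest null-line signal on the reconstituted array.

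Nearest to Fosl1 was Hmga2, an architectural chromatin protein of embryonic cells, at 0.215 (median gene 1.14), then Phlda1 (0.402) and Sprr1a (0.460). Hmga2 read 9134 with wild-type GFP and 4693 with K278*, against 1216 to 2251 with the other 4 constructs of that line, and 5745, 5915 and 4245 on the reconstituted, untransduced and GFP null arrays. Nearest to Jun were Ifrd1 (0.105), Specc1 (0.106) and Id1, an inhibitor of helix-loop-helix factors (0.112), where the median gene was at 0.411. Nearest to Fos were Hoxc10 (0.356), the cell-cycle inhibitor Cdkn2b (0.370) and Fbln7 (0.387), where the median gene was at 2.52. Hoxc10, Cdkn2b and Fbln7 each read 23.4 or less on the wild-type-line arrays and reached the minimum signal only through the null line. The constant added to each signal before log2 sets much of the size of their step between the lines. Their nearness to Fos thus depends in part on that constant.

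Other genes of the pathway were read from lists by role, 1 probe set per gene, in the null line against control vector. Over all 10177 genes, 10.2% rose and 10.0% fell, with a median of -0.03.

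Of 21 other immediate-early genes tested, 13 rose and 0 fell (61.9%), with a median log2 change of 1.88. Egr1, a zinc-finger factor induced by growth factors, rose by 4.35 (SE 0.229), the orphan receptor Nr4a1 by 3.83 (SE 0.342), Ier2 by 3.44 (SE 0.299) and Egr3 by 3.42 (SE 0.474). With 1 array left out in turn, the median log2 change of the list was 1.67 to 1.92. That of Egr1 was then 4.19 to 4.51, of Nr4a1 3.55 to 4.10, of Ier2 3.08 to 3.80 and of Egr3 2.69 to 4.16. Between all arrays of the lines 16 of the 21 rose and 2 fell, where 18.1% of all genes rose and 19.9% fell. The summed signal over the 25 genes of the list on the array was 131759 to 154272 in the null line and 29224 to 51616 in the wild-type line. Without K278* and the GFP control, 19 rose and 2 fell, where 17.9% of all genes rose and 21.5% fell. The list was made with earlier results of these arrays known, so its count is not independent evidence of its direction.

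**Figure D4:**
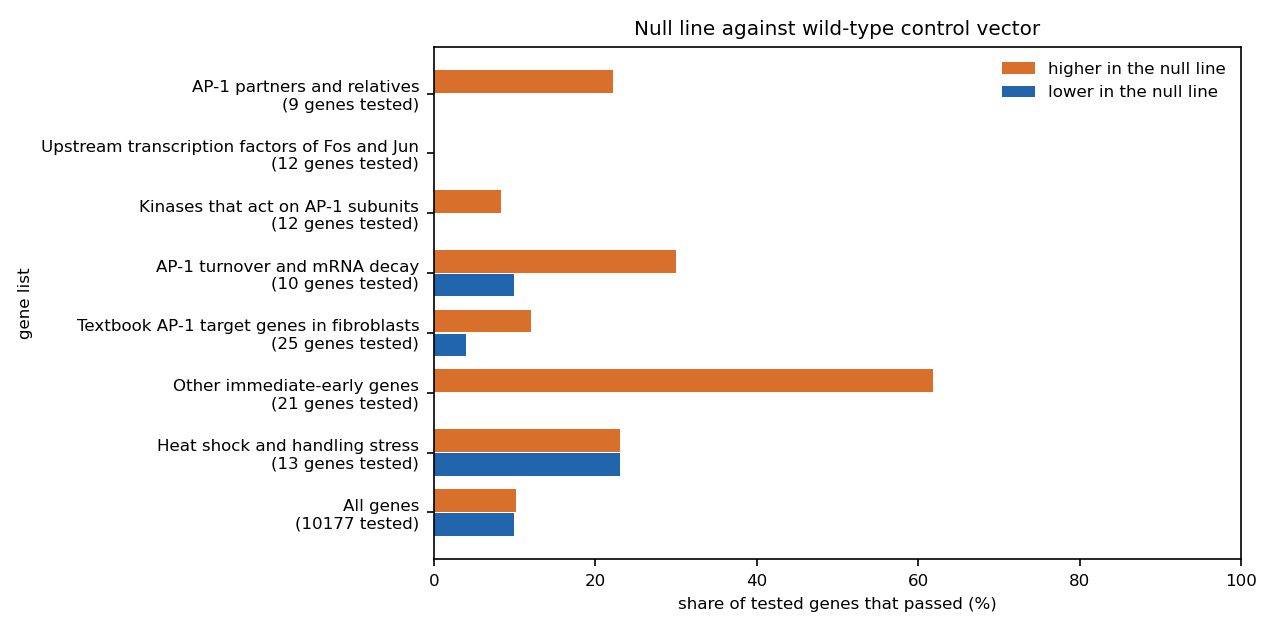
Share of tested genes (horizontal, percent) that passed as higher or lower in the null line than with control vector, by list (vertical), with all genes at the bottom. The immediate-early genes stand at 61.9% higher, against 10.2% of all genes.

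Among 9 AP-1 partners and relatives, 2 rose and 0 fell. Mafk, a small Maf protein without an activation domain, rose by 1.36 (SE 0.200, adjusted p = 0.00448), and Atf3, a stress-induced factor that pairs with Jun proteins, by 1.06 (SE 0.217, adjusted p = 0.0154). Without the GFP null array neither passed (1.23 and 0.75). Jdp2, a repressor that pairs with Jun, was at 0.01, and Atf2 and Atf7, which bind cAMP response elements, at -0.18 and -0.21, none of which passed. Of 12 upstream transcription factors 0 passed. Srf, serum response factor, which drives Fos from its serum response element, was at 0.08 (SE 0.198), and its partners Elk1, Elk3 and Elk4 were at 0.04, -0.34 and 0.06.

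Of 20 listed kinases and GTPases, 12 had a tested probe set with that single symbol, and 1 of these rose. It was Mapk9, which encodes the Jun kinase JNK2 (0.54, SE 0.144, adjusted p = 0.0376), and its call ended with either null array or LacZ left out. Mapk8, the gene of JNK1, was at 0.21 and did not pass.

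Of 10 genes of AP-1 turnover and mRNA decay, 3 rose and 1 fell. Zfp36, which binds AU-rich elements such as that of the Fos transcript and marks it for decay, rose by 1.99 (SE 0.202, adjusted p = 0.000958), Zfp36l1, a relative, by 1.12, and Fbxw7, the substrate receptor of a ubiquitin ligase for Jun, by 0.68, while Hnrnpd, another protein that binds AU-rich elements, fell by 1.09 on the log2 scale. With either null array left out Zfp36l1 and Fbxw7 did not pass, so that 1 gene of the list, Zfp36, rose, where 3.73% of all genes rose when the untransduced array was left out and 3.10% when the GFP null array was. Between all arrays of the lines 6 of the 10 rose and 1 fell, where 18.1% of all genes rose and 19.9% fell. The summed signal of the list was 36274 to 38359 in the null line and 30077 to 34689 in the wild-type line.

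Of 25 genes that textbooks name as AP-1 targets in fibroblasts, 3 rose, 1 fell and 21 did not pass, shares of 12.0% and 4.0% beside 10.2% and 10.0% of all genes. Those that rose were the cell-cycle inhibitor Cdkn2a, the cytokine Lif and the haem oxygenase Hmox1 (1.44). Cdkn2a averaged 3836 on the null arrays and 10.1 with control vector, and Lif 498 on the null arrays and 73.8 with control vector. Both reached the minimum signal for testing only through the null line, and the offset of 25 sets much of the size of the log2 change of Cdkn2a. The stromelysin Mmp3, whose promoter carries an AP-1 site, fell by 3.31 (SE 0.480, adjusted p = 0.00424), with means of 57.3 on the null arrays and 831 with control vector. Mmp3 reached the minimum signal only through the wild-type line. Without LacZ 6 rose and 1 fell, where 13.1% of all genes rose and 11.6% fell, and without K278* and the GFP control 12 rose and 4 fell, where 17.9% and 21.5% did. Between all arrays of the lines 6 rose and 3 fell, 24.0% and 12.0% beside 18.1% and 19.9% of all genes, and Ptgs2, the inducible cyclooxygenase, was among those that rose (1.88, adjusted p = 0.0236). Over all arrays Maf also fell by 1.14 (adjusted p = 0.0252), and Mrtfb (0.40), a partner of serum response factor, and Rps6ka3 (0.36), the kinase RSK2, rose. In the reconstitution and PREX2 comparisons 0 genes of these lists passed.

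Further sets of genes are given beside Fos and Junb. Of 13 heat-shock and stress genes 3 rose and 3 fell; Hspb1 (4.39) and Dnajb1 (1.32) rose as Hmox1 did, and Hspa1a fell by 1.53, though it did not pass in the absence of either null array, nor did Dnajb1 pass without the GFP null array. The median log2 change of that list was -0.10, and its summed signal overlapped, at 105846 to 108591 in the null line and 95375 to 119720 in the wild-type line. Of 13 fibroblast markers 0 rose and 1 fell, Thy1 (-5.47). Of the markers of other cell types 0 rose, and those that fell were Csf1r (-0.76, 1 of 2 tested macrophage genes), Krt19 (-1.70, 1 of 2 epithelial) and Map2 and Tubb3 (-2.41 and -1.83, 2 of 3 neural), while 0 of 1 endothelial and 0 of 1 muscle genes passed. Thy1, Krt19 and Tubb3 read at most 27.3, 89.1 and 52.2 on any null-line array. These genes reached the minimum signal for testing only through the wild-type line, so a call could only be lower. The summed signal of the 6 neural markers was 248 to 440.2 in the null line and 1062 to 2236 in the wild-type line. That of the 6 macrophage markers was 357 to 407 in the null line and 529.9 to 729.9 in the wild-type line, and that of the 6 epithelial markers 483 to 564 in the null line and 587 to 649 in the wild-type line. Each of these sums was lower in the null line, where Fos and Junb were higher. Epcam, the tested epithelial gene other than Krt19, went the other way without passing (0.56). It read 255 to 432 in the null line and 162 to 301 in the wild-type line. The summed endothelial markers (5 genes) were at 149 to 258 in the null line and 211 to 623 in the wild-type line, and the muscle markers (5 genes) at 233 to 344 in the null line and 249.7 to 420.2 in the wild-type line. The defining markers Ptprc, Pecam1 and Cdh1 were at most 25.9, 32.7 and 54.6 on any array. The part of these genes in the difference of Fos and Junb was not tested.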

How the data were processed

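The deposited table holds linear array intensity values, made with MAS5 by the authors per the submitters' processing notes, with no version or scaling target named there. The trimmed mean (2% from each end) was 500.0 on every array. Of 45101 probe sets 64 controls were left out. Of the rest, 34945 carried 1 gene symbol, 932 several and 9160 none; 34741 matched RefSeq (GRCm38.p6) by gene identifier. Changes are in log2(signal + 25), which understates dim probe sets. Probe sets averaging at least 100 (19090, of 10177 genes) were fitted with limma 3.58.1 under R 4.3.3, as 5 groups sharing 1 variance estimate (4 residual degrees of freedom, intensity trend); a lone array was taken to vary as the others do. Tests were two-sided, adjusted by Benjamini-Hochberg within a comparison, with a threshold of 0.05. Lists used each gene's brightest probe set. The rule for naming took all family probe sets, the 3 nearest genes of Fos, Fosl1, Jun and Junb, and from a list up to 4 passing genes with the largest change; Jdp2, Atf2, Atf7, Srf, Elk1, Elk3, Elk4 and Mapk8 were added for their roles after their values were seen. Members and lists were chosen with earlier results of these data known. Alternatives were other offsets and minimum signals, quantile normalization, no trend, the compared groups alone, each array left out and, added after the data were seen, GFP (wild-type line) and K278* left out together.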

Additional observations from a re-analysis of the deposited data

How the results depend on the processing

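The calls of Fos kept their direction and passed under every alternative run for the 2 comparisons between the lines, with log2 changes from 4.92 to 5.93. Those of Junb did so except without the GFP null array, where 1 family probe set was called against control vector; with each array left out the number was 1 to 2. With both K278* and the GFP control left out, 4 and 5 probe sets were called in those comparisons, against 2 and 3; the cause was not tested. Reconstitution and the PREX2 comparisons gave 0 called family probe sets under every alternative run. Other values changed sign without passing, before or after, and the cause was not tested. In the null line against control vector these were Fosl1 1417487_at (-0.010 with an offset of 100, -1.41 to 1.59 with each array left out), Fosl2 1422931_at (-0.32 to 0.27, and 0.27 with both left out) and Jun 1417409_at (-0.52 to 0.32, and 0.32). Between all arrays of the lines they were Fosl2 1422931_at (-0.21 to 0.017, and 0.10), Jun 1417409_at (-0.094 to 0.18) and Jun 1448694_at (-0.27 to 0.023, and 0.10), and on reconstitution Fosl2 1437247_at (-0.084 to 0.015). For truncated PREX2 against control vector they were Fos (-0.067 to 0.68, and -0.28 with both left out), Fosl1 1417487_at (-2.62 to 0.38), Fosl2 1437247_at (-0.10 to 0.066, and -0.13), Fosl2 1422931_at (-0.39 to 0.20, and 0.059), Jun 1417409_at (-0.75 to 0.093) and Junb (-0.37 to 0.17). For full-length PREX2 they were Fos (-0.19 to 0.555), Fosl1 1417487_at (-2.70 to 0.31), Fosl2 1422931_at (-0.53 to 0.056), Junb (-0.098 to 0.068, and 0.027 after quantile normalization) and Jund 1449117_at (-0.12 to 0.14, and -0.014). For truncated against full-length PREX2 they were Fos (-0.086 to 0.26, and -0.086 with both left out), Fosl1 1417487_at (-0.58 to 0.43, and -0.58), Fosl2 1437247_at (-0.0070 to 0.16, and -0.0070), Jun 1417409_at (-0.086 to 0.23, and -0.086), Jun 1448694_at (-0.30 to 0.040) and Junb (-0.35 to 0.18). No scaling moved the median of all probe sets by over 0.1. Over all 19090 probe sets the null line against control vector had 3753 calls, against 1834 with the compared groups alone and 1226 and 1011 without the untransduced or the GFP null array, and 7054 with K278* and the GFP control left out. All arrays of the lines had 7181, against 4529 and 4332 without those null arrays and 11282 with K278* and the GFP control left out. Reconstitution had 233 calls with the compared groups alone, against 0, and truncated PREX2 117 without LacZ, against 1. The comparison of all arrays is the same fit with the compared groups alone. No paired analysis was possible because the labels number no replicates. Signal limits Fosb and the dim Fosl1 and Jund probe sets, whose means lay under 100.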
